A study of Mus musculus with 12 samples.

Results

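The transcripts of 4 genes that write or erase N6-methyladenosine (m6A) were examined for m6A in mouse hippocampus: Rbm15, Mettl3, Alkbh5 and Fto. m6A is a methyl mark on adenosines inside messenger RNA. It is written in the nucleus by a methyltransferase complex in which METTL3 is the catalytic subunit and RBM15 an RNA-binding subunit that helps to place the complex on its targets. FTO and ALKBH5 are demethylases that remove the mark, and loss of Fto has been linked to altered neurogenesis in the adult hippocampus. The question was whether the messages of this machinery themselves lie in m6A-enriched regions, and whether that differs between 6 and 2 weeks of age.

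The members were all listed peaks that overlap 4 windows of the mouse build mm9: chr3:107128000-107138000 for Rbm15 (10 kb), chr14:52914200-52925200 for Mettl3 (11.0 kb), chr11:60350000-60372500 for Alkbh5 (22.5 kb) and chr8:93837000-94192800 for Fto (356 kb). Together they held 49 of 148097 peaks, which merged into 21 of 70674 regions when peaks sharing at least 1 bp were joined. The libraries came from hippocampi of male wild-type C57BL/6 mice, with 2 m6A-immunoprecipitated (m6A-IP) libraries at 6 weeks and 2 at 2 weeks. For m6A-IP, an anti-m6A antibody captures pieces of poly(A)+ RNA, and a peak is a stretch of about 100 bp where IP tags outnumber those of a control library, taken here as the input of unselected fragments. Biological replicates are numbered 1 and 2 within an age, but no animals are named, so p-values measure only the spread between these samples. The series also has RNA-seq of hippocampi from adult mice, Fto knockout and wild type, which was not analysed here.

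Levels are tags per 10 M tags of the library, where M stands for 1e6. IP depth was 16.1 and 16.5 M in the 6-week replicates 1 and 2, against 23.4 and 23.0 M in those of 2 weeks. Control depth was 15.8 and 11.7 M in the 6-week replicates, against 29.3 and 16.8 M in the 2-week ones. Depth and age therefore cannot be told apart. Every listed peak had at least 3-fold more IP than control tags at matched depth, so the lists say nothing of tags where no peak was called. All peaks of the 4 windows are listed with the same strand sign, so strand cannot separate genes. According to RefSeq (GRCm38.p6, used for names, strands and overlaps only), Slc16a4 overlaps Rbm15, Tox4 overlaps Mettl3 and 4831440D22Rik overlaps Fto, and reads from such pairs cannot be separated. Hippocampal marker genes and the other genes of the m6A pathway were not examined, since no mm9 annotation was used here. For the same reason no peak was placed in an exon. Peaks are named by the window they overlap, and need not lie in the message of that gene.

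The Rbm15 window carried most of the peaks. It held 9 and 10 peaks in 6-week replicates 1 and 2, and 11 and 6 in 2-week replicates 1 and 2. The Fto window, although far longer, held 2 and 3 peaks at 6 weeks and 2 and 2 at 2 weeks. Alkbh5 had 1 and 1 at 6 weeks and 0 and 1 at 2 weeks. Mettl3 had a single peak, in 6-week replicate 1, against none in the other 3 libraries. For no gene did the counts of both 6-week libraries lie above or below those of both 2-week libraries. With 2 libraries against 2, an exact two-sided test of such counts cannot give a p under 0.333.

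**Figure D1:**
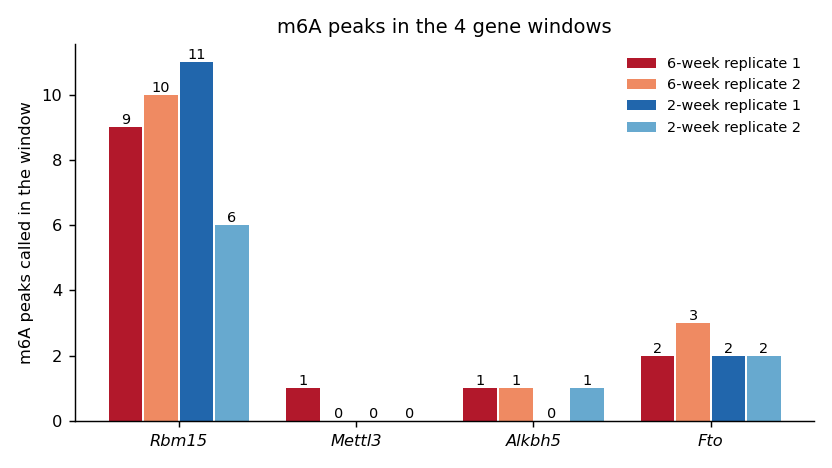
Number of m6A peaks called in each gene window (vertical axis) for the 4 genes, with the 6-week libraries to the left of the 2-week libraries; 1 bar is 1 library. Rbm15 holds 6 to 11 peaks per library and each other gene 0 to 3.

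All regions called in every library belonged to Rbm15. Of its 13 regions, 5 (38.5%) were called in all 4 libraries, against 14.4% of all 70674 regions; 2 were called in 3 libraries, 1 in 2 and 5 in a single library. Over the whole series 58.6% of regions were called in a single library. None of the 5 Fto, 2 Alkbh5 and 1 Mettl3 regions was called in all 4. These shares describe windows that were chosen with earlier results of these data known, and they were not tested.

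The 5 shared Rbm15 regions lay within 1714 bp of each other. Across the genome, 212 of the 10203 regions called in all libraries (2.08%) lay in a span of 2000 bp that held at least 5 such regions, and 44.8% had no other within that span. The minimum of 5 was taken from Rbm15 itself and the span is little longer than its 1714 bp. The share was not planned and is no test of rarity. With peaks within 200 bp joined, the Rbm15 regions called in every list numbered 2. The gene is transcribed from the minus strand in RefSeq, so higher coordinates lie toward its 5′ side. From low to high coordinates the shared regions were chr3:107133221-107133382, chr3:107133799-107133945, chr3:107134258-107134392, chr3:107134566-107134672 and chr3:107134746-107134935.

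The region at chr3:107133221-107133382 had the most IP tags of the shared regions in 3 of the 4 libraries. It held 63.3 and 26.0 IP tags per 10 M at 6 weeks and 44.4 and 42.2 at 2 weeks. The 6-week libraries lay on either side of the 2-week ones. Its control held 10.8 and 3.42 tags per 10 M at 6 weeks (17 and 4 tags), and 2.05 and 1.78 at 2 weeks (6 and 3 tags). Enrichment, the ratio of IP to control tags per 10 M, was 5.87 and 7.63 at 6 weeks and 21.7 and 23.7 at 2 weeks. Both 6-week ratios were below both 2-week ratios, as in 10.2% of the 4577 regions of the series that had exactly 1 peak in every list.

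The next region, chr3:107133799-107133945, was weaker in IP tags. It held 22.3 IP tags per 10 M in 6-week replicate 1 and 7.27 and 17.0 in the 2 overlapping peaks of 6-week replicate 2, against 19.2 and 21.3 at 2 weeks. Its ratios were 7.05 in 6-week replicate 1, and 8.51 and 9.93 in the peaks of 6-week replicate 2, against 4.02 and 18.0 at 2 weeks. The 2-week ratios, which rest on 14 and 2 control tags, enclosed all those of 6 weeks.

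The middle region, chr3:107134258-107134392, held 43.4 and 23.0 IP tags per 10 M at 6 weeks and 33.7 and 29.6 at 2 weeks. Its control level was 1.90 and 3.42 per 10 M in the 6-week replicates, against 3.07 and 4.75 in the 2-week ones. The ratios were 22.8 and 6.74 at 6 weeks and 11.0 and 6.23 at 2 weeks. The ages overlapped in all 3 measures.

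At chr3:107134566-107134672 the peaks of the 4 libraries started within 6 bp of each other. They held 26.0 and 15.1 IP tags per 10 M at 6 weeks and 25.2 and 24.0 at 2 weeks. The control held 0.634 and 3.42 tags per 10 M at 6 weeks (1 and 4 tags) and 4.09 and 4.16 at 2 weeks (12 and 7 tags). Both 6-week controls were thus below both 2-week controls, as in 48% of the 4577 regions. The ratio of 41.1 in 6-week replicate 1 rests on a single control tag, with a 95% interval of 6.99 to 1662 (exact Clopper-Pearson, counting error only, as for all intervals here), and the ratio was 4.43 in 6-week replicate 2. At 2 weeks the ratios were 6.15 and 5.76.

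The region at chr3:107134746-107134935 held 26.7, 35.3 and 31.6 IP tags per 10 M in 3 overlapping peaks of 6-week replicate 1 and 27.3 in 6-week replicate 2, against 20.9 and 19.6 at 2 weeks. A pair of the 3 peaks had the same printed start but different tag numbers. The ratios were 8.42, 11.2 and 8.32 in 6-week replicate 1 and 16.0 in 6-week replicate 2, against 6.81 and 4.12 at 2 weeks. Every 6-week peak was above both 2-week peaks in IP tags and in ratio. Among the 4577 regions with exactly 1 peak in every list, both 6-week libraries lay above both 2-week libraries in 6.49% for IP tags and in 19.5% for the ratio. No test was run, since the region had more than 1 peak in a list.

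**Figure D2:**
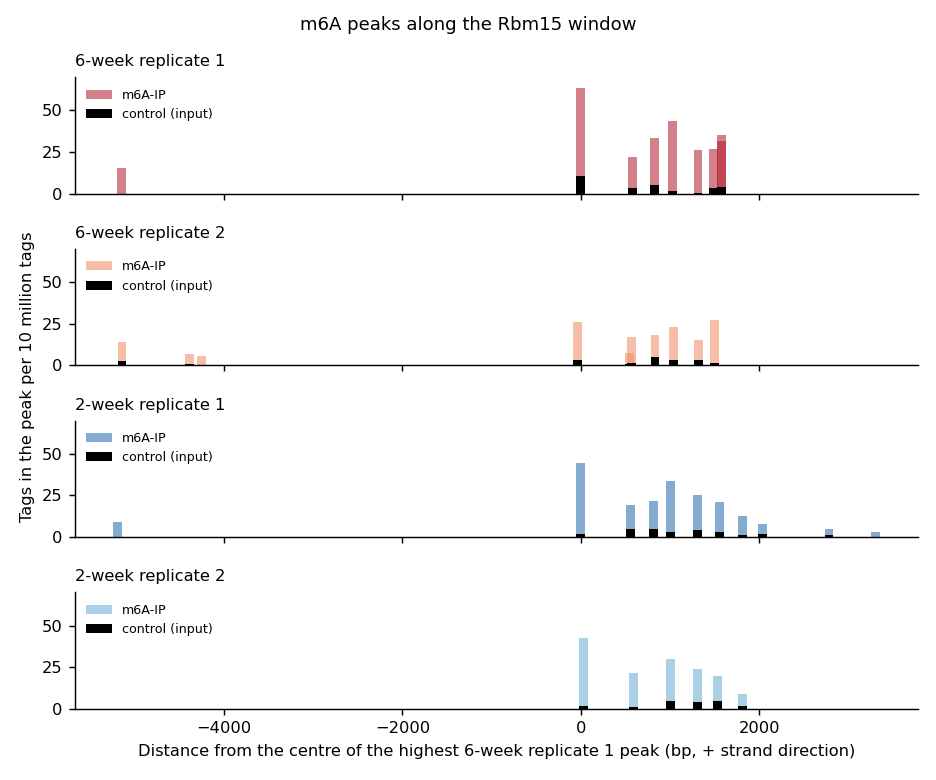
IP tags (coloured) and control tags (black) per 10 M tags in each Rbm15 peak, plotted by distance in bp from the centre of the highest peak of 6-week replicate 1 along the plus strand; the gene runs from right to left. All 4 libraries show a group of peaks at and to the right of 0, the highest with 63.3 IP tags per 10 M, and 3 of them a smaller group near the left edge.

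Pooling the 5 shared regions joins regions whose observed ratios lay in opposite directions, lower at 6 weeks at chr3:107133221-107133382 and higher at chr3:107134746-107134935. Neither direction is established, since the first did not pass the test (edgeR adjusted p = 0.999) and the second was not tested. The pooled ratio of IP to control tags was 9.35 and 7.97 at 6 weeks and 8.41 and 8.22 at 2 weeks. The mean ± SD of the 2 libraries was 8.66 ± 0.973 at 6 weeks, against 8.31 ± 0.13 at 2 weeks, and the exact two-sided permutation p was 1.0, in a design that cannot go under 0.333. Control tags, the measure of poly(A)+ RNA that the files give, averaged 3.80 and 2.42 per 10 M per 100 bp of peak at 6 weeks and 3.41 and 3.33 at 2 weeks. IP tags averaged 35.5 and 19.3 per 10 M per 100 bp at 6 weeks and 28.7 and 27.4 at 2 weeks. In each measure the 6-week replicates enclosed both 2-week replicates. Overlapping peaks in the 6-week lists can count tags more than once; with the highest peak of each region alone the pooled ratios were 9.69 and 7.94 at 6 weeks.

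Compared with other regions called in every library, Rbm15 had lower control levels in each library. Its median control level in these peaks was 3.17 and 2.56 tags per 10 M at 6 weeks and 3.07 and 4.16 at 2 weeks, where the medians over all such peaks were 6.33 and 5.12 at 6 weeks and 8.19 and 8.32 at 2 weeks. The Rbm15 median fold was 8.42 and 8.07 at 6 weeks and 6.81 and 6.23 at 2 weeks, beside 7.67 and 6.15 at 6 weeks and 6.25 and 6.35 at 2 weeks over all such peaks. The folds are the authors' own values. These are descriptions, with no test.

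Of the 5 shared regions, 3 had exactly 1 peak in every list and entered the comparison of the ages across all 4577 such regions. Each had passed the 3-fold minimum in every list, and changes are relative to the median region. Enrichment did not pass the threshold of 0.05 on the adjusted p at any of the 4577 regions (0% called higher and 0% lower at 6 weeks). An unadjusted p under 0.05 was reached by 127 regions in edgeR and 28 in DESeq2. Each count is a share below 0.05 of the regions tested, and so no excess of low p-values. At chr3:107133221-107133382 the log2 change of the ratio, 6 over 2 weeks, was -2.0 ± 0.65 (SE; edgeR unadjusted p = 0.00399, adjusted p = 0.999). Leaving out 1 library it ran from -2.23 to -1.44, the last without 6-week replicate 1 (edgeR unadjusted p = 0.146). The change was 0.48 ± 0.73 at chr3:107134258-107134392 and 0.79 ± 0.82 at chr3:107134566-107134672 (edgeR adjusted p = 0.999 each). These turned to -0.25 and -0.33 when 6-week replicate 1 was left out, while the fit lacking 6-week replicate 2 gave 1.09 and 2.45.

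Control tags at chr3:107133221-107133382 rose at 6 weeks in the edgeR fit, a call that several alternatives did not give. Mean ± SD of the 2 libraries was 7.09 ± 5.2 tags per 10 M at 6 weeks, against 1.91 ± 0.187 at 2 weeks. The fitted log2 change was 2.38, with an SE of 0.68 and an adjusted p of 0.039 in edgeR. The same control tags are the denominator of the ratio there, whose log2 change was -2.0, while that of IP tags was 0.38. The lower ratio and the control rise are therefore not separate results. Both 6-week controls were above both 2-week controls, as in 6.88% of the 4577 regions, and 1.11% of the regions were called higher at 6 weeks and 1.07% lower. The call rested on 6-week replicate 1: without it the log2 change was 1.40 (adjusted p = 0.62, edgeR), and it was also lost without 2-week replicate 1 (2.58, adjusted p = 0.787) or 2-week replicate 2 (2.23, adjusted p = 0.533) and with total-tag scaling (1.90, adjusted p = 0.0617), which moved the median of all regions from a log2 change of -0.03 to -0.53. The region did not pass edgeR's filter on low tags, and DESeq2 gave it no adjusted p (unadjusted p = 0.0194). Without 6-week replicate 2 the change was 2.86 (edgeR adjusted p = 0.00941), and the adjusted p of the edgeR alternatives ran from 0.00941 to 0.787. The peaks of the 4 libraries started up to 61 bp apart here, and the part of that shift in the control tags was not tested. Control tags at this region alone do not show a rise of the whole transcript. Even a rise could not, in bulk tissue, tell more RNA per cell from more cells that carry it.

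Control tags at the other Rbm15 regions did not pass the test. Their log2 change was -0.04 ± 0.81 at chr3:107134258-107134392 (edgeR adjusted p = 0.991) and -0.63 ± 0.87 at chr3:107134566-107134672 (edgeR adjusted p = 0.781); the difference between regions was not tested. The log2 change of IP tags was 0.38 ± 0.40 at chr3:107133221-107133382, 0.43 ± 0.40 at chr3:107134258-107134392 and 0.12 ± 0.41 at chr3:107134566-107134672, with edgeR adjusted p of 0.676, 0.624 and 0.907. Of all regions, 0.852% were called higher and 0.24% lower at 6 weeks in IP tags. In none of the 3 Rbm15 regions did the ages separate in IP tags, whereas both 6-week libraries were below both 2-week libraries in 43.2% of all regions.

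**Figure D3:**
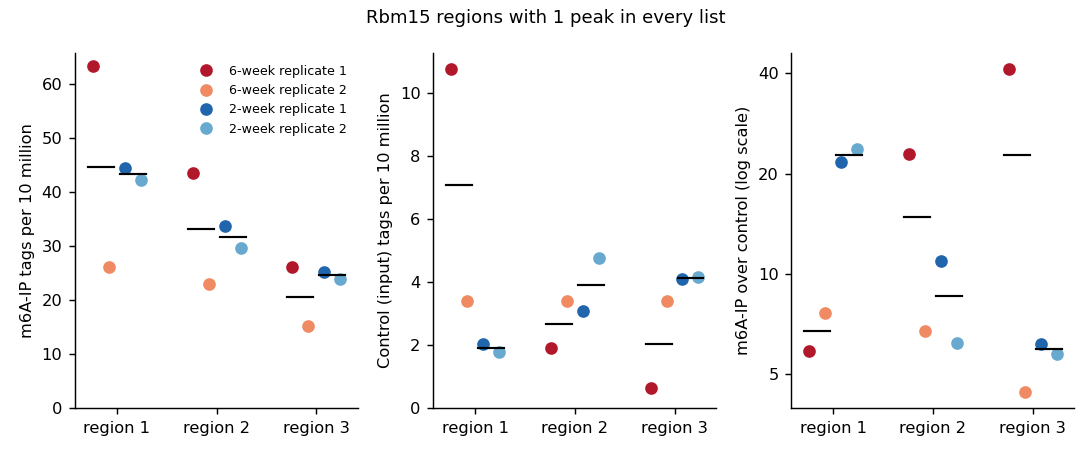
IP tags per 10 M, control tags per 10 M and their ratio (log axis) in the 3 Rbm15 regions with 1 peak in every list; region 1 starts at 107133221, region 2 at 107134258 and region 3 at 107134566. Points are libraries, with 6 weeks left of 2 weeks, and bars are means of 2. The 6-week ratios of 5.87 and 7.63 in region 1 lie below the 2-week ratios of 21.7 and 23.7, and the 6-week points spread more widely than the 2-week points in IP tags.

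Rbm15 also had regions that were not shared by all libraries. At 2 weeks only, chr3:107135067-107135170 was called, with 12.4 and 9.15 IP tags and 1.02 and 1.78 control tags per 10 M (3 and 3 control tags) and ratios of 12.1 and 5.13. It was 1 of 2 regions of the 4 windows called in both 2-week libraries and neither 6-week library, a class that holds 6.41% of all regions; none of the 21 was called at 6 weeks only (1.92% of all). The nearest 6-week peaks were 132 and 218 bp away, and the region joins its neighbours when peaks within 200 bp are merged. Beyond it toward the 5′ side, 3 regions were called in 2-week replicate 1 only, with 2.99 to 8.11 IP tags per 10 M. IP depth was 23.4 M in that library and 23.0 M in 2-week replicate 2, which called none of the 3. Control depth was 29.3 and 16.8 M in these libraries, and the part of depth in the calls was not tested.

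Between shared regions, chr3:107134067-107134186 was called in 3 libraries, with 33.5 and 18.2 IP tags per 10 M at 6 weeks and 21.8 in 2-week replicate 1. Its ratios were 6.61 and 3.55 at 6 weeks and 4.25 at 2 weeks. In 2-week replicate 2, which had no peak there, the nearest peak was 72 bp away.

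A separate group of Rbm15 peaks lay 4121 bp toward the 3′ side of the shared group, the side on which Slc16a4 overlaps the gene in RefSeq. Its main region, chr3:107128066-107128212, was called in 3 libraries, with 15.5 and 13.9 IP tags per 10 M at 6 weeks and 8.96 in 2-week replicate 1. The control held 0 and 3 tags at 6 weeks and 1 tag in 2-week replicate 1. Against a floor of 3 control tags, IP was at least 8.16-fold higher than control in 6-week replicate 1; the exact 95% lower bound of the ratio, from a count of 0, was 6.16. It was 5.44-fold higher in 6-week replicate 2 (95% interval 1.64 to 28.3). In 2-week replicate 1 the ratio was 26.3 (4.23 to 1086). A further pair of regions in 6-week replicate 2 held 6.66 and 5.45 IP tags per 10 M. Just outside the window, 27 bp below its edge in 6-week replicate 2 and 55 bp below it in 2-week replicate 1, further peaks held 14 and 8 IP tags and no control tag.

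Mettl3, the catalytic subunit, had its only peak at chr14:52914860-52914960 in 6-week replicate 1, with 14.9 IP and 3.80 control tags per 10 M (24 and 6 tags). The ratio was 3.92 with a 95% interval of 1.56 to 11.7. The peak lay 660 bp inside the lower edge of the window, the 3′ side of this minus-strand gene and the side of Tox4. Just outside that edge, peaks of 3 libraries lay 2635 bp away in 6-week replicate 1, and 2446 and 2504 bp away in 2-week replicates 1 and 2. The call in a single library was not repeated by its replicate, and what the other libraries held at that place is not given in a list of peaks.

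Alkbh5, an m6A demethylase of the nucleus, had 2 regions. At chr11:60367858-60367959 the peaks of both replicate 2 libraries started within 1 bp of each other, with 18.8 IP and 2.56 control tags per 10 M at 6 weeks and 30.5 IP and 5.94 control tags per 10 M at 2 weeks. The ratios were 7.33 (95% interval 2.29 to 37.5) at 6 weeks and 5.13 (2.63 to 11.2) at 2 weeks, whose intervals overlap. Neither replicate 1 library had a peak there. The second region, chr11:60352202-60352302, was called in 6-week replicate 1 only, with 58.3 IP and 14.6 control tags per 10 M and a ratio of 4.0 (2.51 to 6.62). The nearest listed peaks outside the window lay 68104 bp below and 149904 bp above it.

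**Figure D4:**
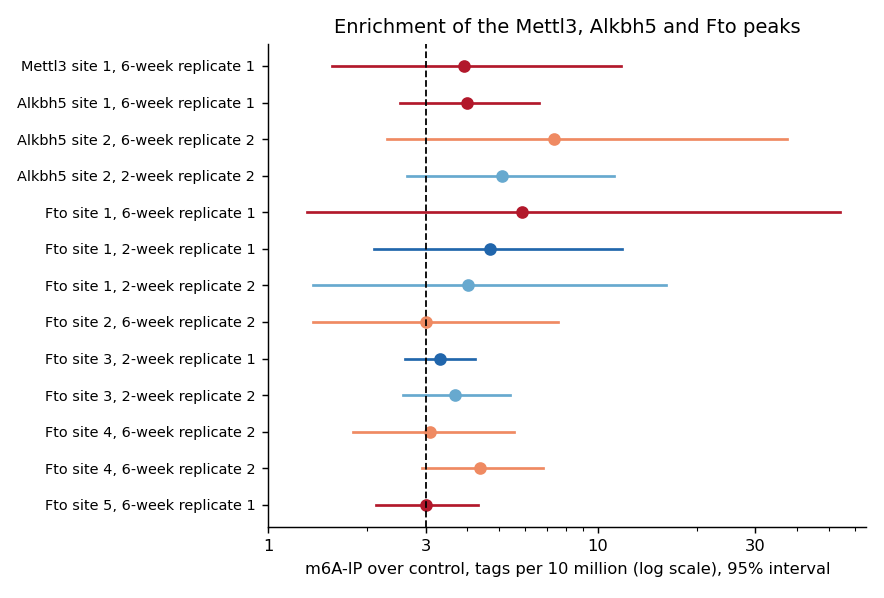
Ratio of IP to control tags per 10 M (log axis) for every peak of Mettl3, Alkbh5 and Fto, with its 95% interval from counting error; sites are numbered from low to high coordinates. The dashed line is the 3-fold minimum of the lists; ratios run from 3.0 to 7.33, and the upper bound reaches 54.0 at Fto site 1.

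Fto had 5 regions, none called in both 6-week libraries. The region with the most calls, chr8:93837426-93837558, lay 426 to 458 bp inside the lower edge of the window, the 5′ side of this plus-strand gene. It held 7.44 IP tags per 10 M in 6-week replicate 1, against 12.8 and 9.58 at 2 weeks. The control tags numbered 2 in 6-week replicate 1, against 8 and 4 in the 2-week libraries. The ratios were 5.87 (95% interval 1.31 to 54.0) at 6 weeks and 4.69 (2.1 to 11.8) and 4.03 (1.37 to 16.1) at 2 weeks. The nearest peak of 6-week replicate 2 lay 32713 bp away.

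A further site in the Fto window was better covered. It started 96306 bp inside the lower edge in 2-week replicate 1. Whether it lies in the Fto message or in 4831440D22Rik was not determined. At chr8:93933306-93933407 the 2-week libraries held 106 and 78.8 IP tags and 32.1 and 21.4 control tags per 10 M, with ratios of 3.31 (95% interval 2.60 to 4.25) and 3.69 (2.57 to 5.43). The region counts as called at 2 weeks only, but 6-week replicate 2 had 2 overlapping peaks that began 7 bp further along, at chr8:93933414-93933591. They held 44.8 and 105 IP tags and 14.5 and 23.9 control tags per 10 M, with ratios of 3.09 (1.81 to 5.58) and 4.38 (2.93 to 6.79). Joining peaks within 200 bp ended the call at 2 weeks only. In 6-week replicate 1 the nearest peak was 95780 bp away.

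The remaining Fto regions were called in a single 6-week library each. Replicate 2 had 20.6 IP and 6.83 control tags per 10 M at chr8:93925662-93925762, a ratio of 3.01. Replicate 1 had 83.7 IP and 27.9 control tags per 10 M at chr8:94190479-94190579, which lies 2221 bp inside the upper edge, the 3′ side of the gene, with a ratio of 3.0 (95% interval 2.12 to 4.32). Of the 9 Fto peaks, 5 had a fold under 4, where 22.9% and 20.6% of all peaks had one at 6 weeks and 20.4% and 17.0% at 2 weeks. Of the 36 Rbm15 peaks, 1 had a fold under 4.

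**Figure D5:**
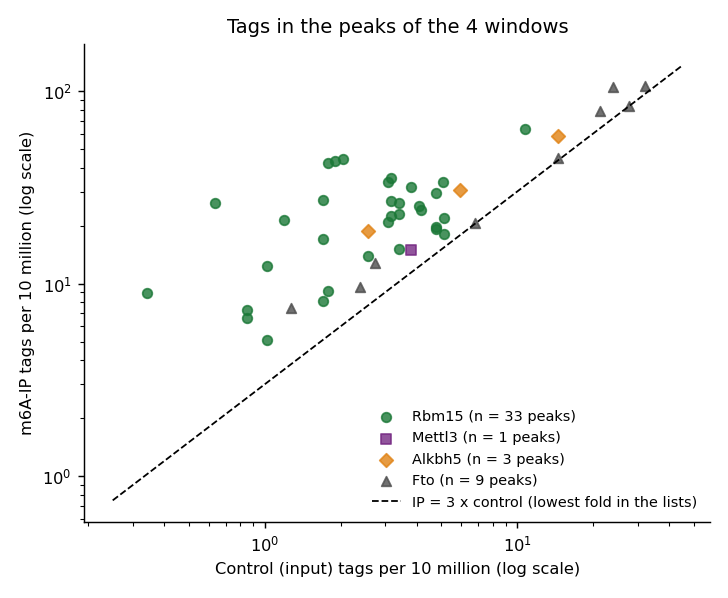
IP tags against control tags per 10 M (log axes) for every member peak with at least 1 control tag; each point is 1 peak in 1 library. The dashed line marks the lowest fold in the lists, 3. Rbm15 peaks lie at control levels up to 10.8 tags per 10 M, some near the line (6 with a ratio under 5) and others far above it; Fto peaks have ratios of 3.0 to 5.87 at control levels up to 32.1 tags per 10 M.

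Control levels differed widely within the Fto window. Over all peaks of a window, the median control level per 100 bp of peak was 14.6 and 14.5 tags per 10 M at 6 weeks and 17.4 and 11.9 at 2 weeks for Fto. For Rbm15 it was 3.17 and 2.13 at 6 weeks and 2.05 and 2.97 at 2 weeks. The Fto medians in 6-week replicate 1 and in both 2-week libraries are midpoints of 2 unlike peaks. At chr8:93837426-93837558 the Fto control held 1.27 tags per 10 M in 6-week replicate 1, against 2.73 and 2.38 at 2 weeks, which is below the Rbm15 median in 6-week replicate 1 and 2-week replicate 2. Alkbh5 had 14.6 and 2.56 at 6 weeks and 5.94 in 2-week replicate 2, a range that overlaps both. The only Mettl3 value was 3.80. These levels come only from places where a peak was called, which differ between libraries, and so are no measure of the whole transcript.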

How the data were processed

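HOMER, TopHat2 (2.0.13, 2.1.1), Bowtie2 (2.2.3), Cufflinks (2.2.1) and the build mm9 are listed without roles, per the submitters' processing notes. Per the file headers, the columns are those of HOMER's peak caller, and each library has its own list. No source used here gives the caller's options or names the control library. The deposited normalized tag number is a signal scaled by a constant per library. Total IP tags were deposited as a count for 2-week replicate 1 and as a scaled signal elsewhere. The fold ratio, p-value and score are the authors' own. The deposited focus ratio, a fraction, was not used.

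For whole tags, each scaled column was divided by its step of 1 tag; 100% of values in each list came out whole within 0.2 tag. A control value of 0.5 tag meant none. Depths assume scaling to 10 M tags. Ratios use recovered tags per 10 M. Age was tested with edgeR's quasi-likelihood fit over the 4577 regions with 1 peak in each list (TMM, Benjamini-Hochberg): the interaction of fraction and age for enrichment, with a sample term, and age for control and IP tags. The SE of an edgeR change was derived from its test, as the absolute log2 change divided by the square root of the F statistic. The fits were tested on simulated data. Alternatives included DESeq2, other scalings, filters and overlaps, and leaving out each library. Members, windows and tests were chosen with earlier results of these data known. Every region called in all libraries or at one age only was to be named; the others described singly were chosen after their values were seen. Fits ran in R 4.3.3 with edgeR 4.0.16 and DESeq2 1.42.0, and other steps in Python 3.11.15 (scipy 1.17.1, pandas 2.3.3, numpy 2.4.6).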

Additional observations from a re-analysis of the deposited data

How the results depend on the processing

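Few control tags stood behind the Rbm15 ratios, 0 to 17 per peak. At 4-fold or more, Fto kept 4 peaks and Mettl3 0. At 8-fold or more Rbm15 had 17 of 36 peaks, with fewer peaks by construction. Fto, Alkbh5 and Mettl3 had 0, from only 9, 3 and 1 peaks. The share of all peaks at 8-fold or more was not counted, and the median fold of the lists was 5.97 to 7.33. Wider windows and not counting repeated starts, both chosen after seeing the data, and equal list lengths kept all counts of peaks per gene within 1.5 times. Regions of Rbm15 called in every list numbered 2 with peaks within 200 bp joined and 0 at 8-fold or more. Leaving out 1 library gave 5 to 7 for Rbm15 and 0 to 1 for Fto, the 1 without 6-week replicate 2. Regions of the 4 windows called at 6 weeks only numbered 0, and 1 at 8-fold or more; leaving out 1 library gave 0 to 4. Those called at 2 weeks only numbered 2, then 0 with peaks joined, and 1 at 4-fold and at 8-fold; leaving out 1 library gave 2 to 5, since a single list needs no second call.

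Over all regions, enrichment calls stayed at 0, except for 0 to 2 higher when 1 library was left out. Input calls (51 higher, 49 lower) became 22 and 13 with DESeq2, 21 and 370 with total tags, and 14 higher, 14 lower among the fewer regions whose peaks start at most 20 bp apart. With 1 library omitted they ran from 0 (either 2-week library) to 85 (6-week replicate 1) higher, and from 0 to 72 lower. IP calls (39 and 11) became 60 and 44 with DESeq2, 0 and 0 with total tags (736 at an unadjusted p under 0.05 in edgeR) and 17 higher, 5 lower for the close starts; omitting 1 library they ran from 3 (either 2-week library) to 402 (6-week replicate 2) higher, and from 1 to 325 lower. These fits take the spread of a lone library from the age that keeps 2.

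The replicate numbers are not shown to pair the libraries: same-numbered libraries deviated together with a correlation of 0.026 in IP and 0.03 in control tags. With the replicate block, IP calls were 112 and 78, input calls 50 and 49 and enrichment calls 0. The control rise at Rbm15 from 107133221 then had an edgeR adjusted p of 0.0509 with a log2 change of 2.35. Leaving out 1 library, the log2 changes of enrichment ranged from -0.25 to 1.09 at 107134258 and -0.33 to 2.45 at 107134566, and those of control tags from -0.53 to 0.47 and from -2.18 to 0.34. The IP change at 107134566 turned to -0.25 with total tags. The causes were not tested.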
